A study of Mus musculus with 9 samples.

Results

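The activin, TGF-β and BMP signalling genes are 41 genes that encode the ligands of the TGF-β superfamily, the extracellular antagonists that trap them, their receptors, the SMAD proteins and ubiquitin ligases that carry or limit the signal, and the ID genes that respond to it. They were picked by gene symbol, and all 41 were found among the 18193 genes measured on Affymetrix mouse genome arrays. Their expression was followed in endothelial cells (ECs) of the mouse lung, on 9 arrays that fall into 3 groups of 3. The healthy group was made of NSG mice, a severely immunodeficient strain without functional lymphocytes, that carried no tumor and were given rat IgG. Metastatic lungs with IgG came from NSG mice whose tail vein had been injected, at 6 to 8 weeks of age, with MDA-MB-231-LM2 cells, a human breast cancer line derived from MDA-MB-231 that colonizes the lung. These mice were given rat IgG on days 21 and 24 and their lungs were taken on day 25, a time that the sample labels call 3 weeks after injection. The third group, metastatic lungs with DC101, differed in that the antibody was the rat antibody DC101, which blocks VEGFR2, a receptor for VEGF, at 40 mg/kg. The healthy mice matched the others in age, so all groups shared the strain and an antibody injection, and no group was left without antibody. ECs were sorted from whole lungs as CD31-positive cells that lacked GFP, which the cancer cells carry, as well as CD140a/b, EpCAM, CD11b and CD45, so each value averages all EC types of the lung, near and far from metastases.

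Ligands of this superfamily are dimers that bring together type II and type I receptors, and the type I receptor then phosphorylates receptor SMADs, which enter the nucleus with the common SMAD4. Activins and TGF-βs act mainly through SMAD2 and SMAD3, and BMPs mainly through SMAD1, SMAD5 and SMAD9. In ECs, circulating BMP9 signals through the receptor ALK1 with endoglin and the type II receptor BMPR2, and the ID genes and the inhibitory SMADs are textbook targets of that branch.

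The arrays resembled each other closely. Over all genes, the correlation r was 0.988 to 0.991 between healthy arrays and 0.988 to 0.989 between metastatic arrays with IgG. It was lower between metastatic arrays with DC101, at 0.983 to 0.987, and 0.97 to 0.989 between arrays of different groups. The mean log2 level of 15 pan-endothelial markers lay between 13.46 and 13.56 on every array, as the EC label requires. Other cells were not shown to be absent. Fibroblast and mural markers averaged 9.78 to 10.26 across the arrays and lung epithelial markers 8.57 to 9.61, beside a median gene level of 9.03. Which cells gave each signal was not tested. The members varied between arrays of a group about as much as other genes, with a median SD of 0.11 in healthy lungs, 0.14 in metastatic lungs with IgG and 0.13 in metastatic lungs with DC101, against 0.14, 0.14 and 0.17 over all genes. Whether every array came from its own mouse is not stated, beyond the word biological in the sample titles, so the p-values reflect no more than the spread between these samples, and 3 arrays per group limit the precision. All levels below are deposited log2 values of 1 probe set per gene, and a difference of 1 is a 2-fold change. Most levels are tied with those of other probe sets, as the 45101 probe sets of an array take 5915 to 6729 different values, and the origin of these ties is not given in the sources used here. A gene was called changed at an adjusted p under 0.05 in limma, a linear model fitted to all 18193 genes, with Benjamini-Hochberg adjustment. In these sorted bulk samples, fewer cells of a type and less RNA per cell cannot be told apart.

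To ask how metastasis altered this signalling system, metastatic lungs with IgG were first compared with healthy lungs. The activin ligand gene Inhbb and the SMAD genes Smad1 and Smad5 rose together with the receptor gene Tgfbr2. The inhibitory SMAD gene Smad6, the ubiquitin ligase gene Smurf2, the type I receptor gene Bmpr1a and the ID genes Id1, Id2 and Id3 fell. Thus 10 of 41 members (24.4%) were called, against 6.53% of all genes. Of these, 4 members were higher, where 3.93% of all genes were called higher, and 6 were lower, where 2.6% of all genes were called lower. The values of the metastatic and healthy arrays did not overlap for 21 of 41 members (51.2%), which was the case for 27.6% of all genes. The members were chosen with earlier results of these data known, so these shares describe the set and do not test it. The median log2 change was -0.08 over the members and -0.02 over all genes. When any 1 of the 6 arrays was left out, 3 to 5 members were called. Inhbb, Smad1 and Smad6 were called in every alternative fit that was run, with adjusted p of at most 0.0374, 0.0353 and 0.0308, and the other 7 lost their call in 3 to 6 of the 6 fits that left out 1 array.

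**Figure D1:**
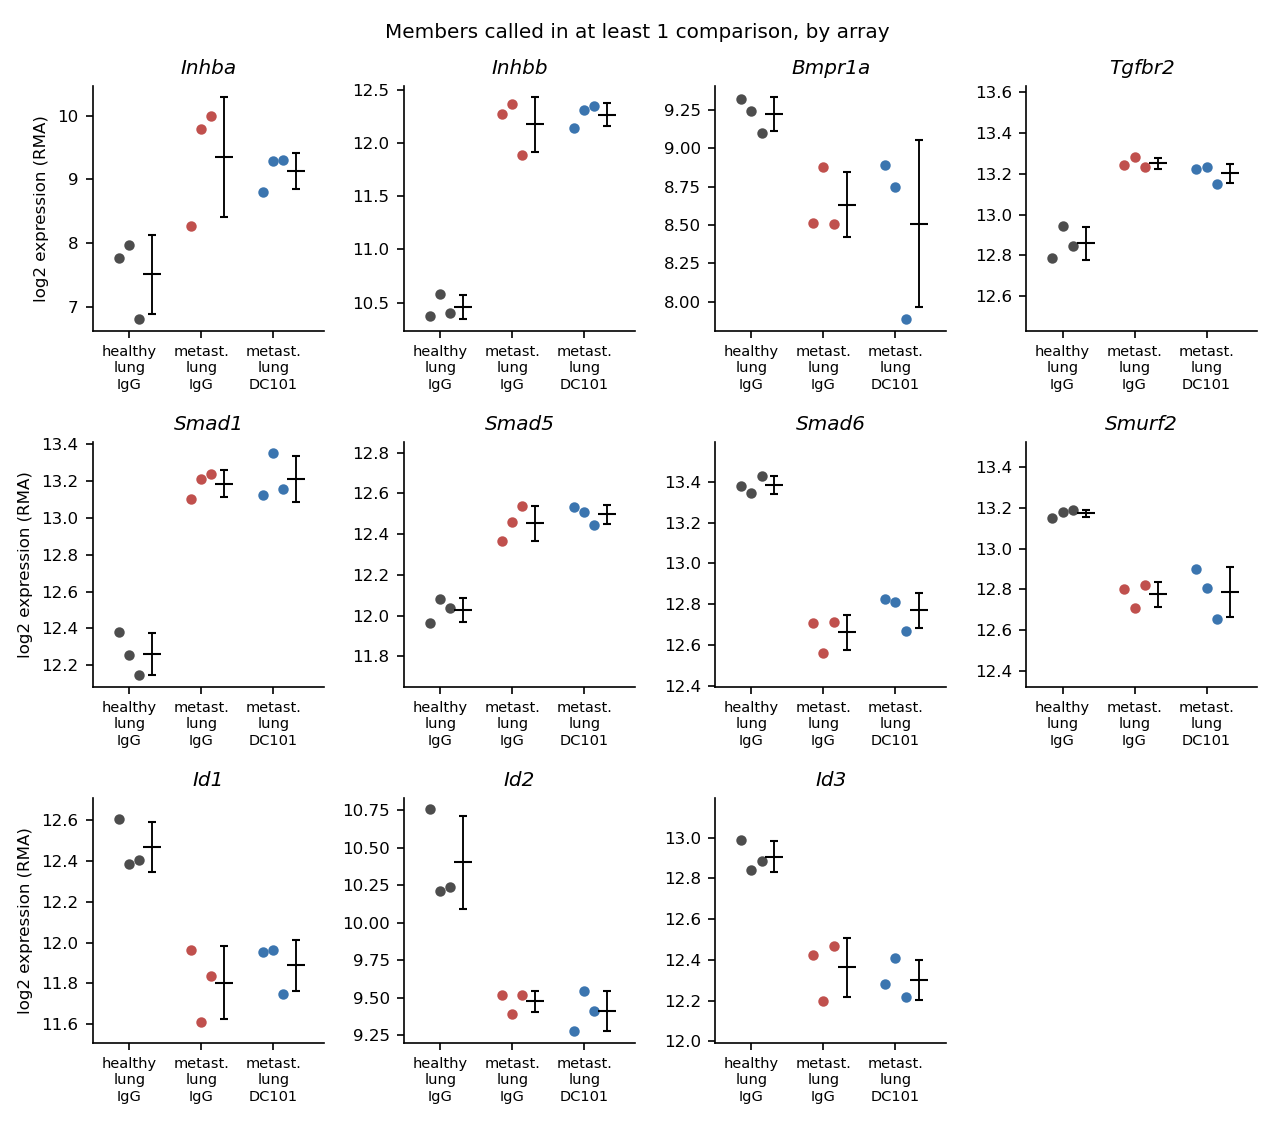
Log2 expression (RMA, vertical axes with a separate range for each gene) of the 11 members called in at least 1 comparison, in healthy lungs with IgG (grey), metastatic lungs with IgG (red) and metastatic lungs with DC101 (blue). Points are arrays, and bars show the mean and SD of 3 arrays. For every gene shown the metastatic arrays of both groups lie on 1 side of the healthy arrays, as for Inhbb, where healthy arrays end at 10.59 and metastatic arrays start at 11.88.

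Among the ligands, Inhbb showed the clearest difference. Inhbb encodes the βB subunit, which forms activin B as a dimer and inhibin B together with the α subunit. Its level was 10.38, 10.59 and 10.40 on the healthy arrays, 12.27, 12.37 and 11.88 on the metastatic arrays with IgG, and 12.14, 12.31 and 12.35 on the metastatic arrays with DC101. All 6 metastatic arrays stood well above the 3 healthy ones. The log2 change with IgG was 1.72 ± 0.15 (SE), or 3.29-fold, with an adjusted p of 0.00144. The gene's second probe set also rose, by 1.16 on the log2 scale. Inhbb belongs to the set of secreted-protein genes that the study had selected as induced in ECs at week 3 of this model, so its direction here is not independent evidence.

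Inhba encodes the βA subunit of activin A and was also on that secreted-protein list and on the study's inflammation signature. Its level was 7.76, 7.97 and 6.81 on the healthy arrays, 8.27, 9.79 and 9.99 on the metastatic arrays with IgG, and 8.80, 9.29 and 9.30 with DC101. The groups did not overlap, but one metastatic array with IgG lay close to the healthy ones. The difference of 1.84 ± 0.50 (SE) did not pass the test, with an adjusted p of 0.0808. It passed without that array, metastatic IgG replicate 1, with an adjusted p of 0.0227, and with every array kept it passed in the fit of all 9 arrays (0.0449) and with an intensity trend (0.0338). The gene's second probe set, which was dimmer, differed by 0.09 only. Inha, which encodes the inhibin α subunit, differed by 0.24 and its groups overlapped.

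None of the TGF-β ligands was called. Tgfb1 differed by -0.08 with a 95% interval of -0.34 to 0.18, and Tgfb2 by 0.15 with an interval of -0.46 to 0.76. Tgfb3 was 8.99, 8.66 and 9.64 on the healthy arrays and 9.79, 9.99 and 9.93 on the metastatic arrays with IgG, so the groups stood apart, yet the change of 0.81 had an adjusted p of 0.0997. Other probe sets of Tgfb1 and Tgfb2 gave another picture. A dimmer probe set of Tgfb1 fell by 0.65, with an adjusted p of 0.0413 over all probe sets, and a dimmer probe set of Tgfb2 rose by 0.81, with an adjusted p of 0.0289. The other 2 probe sets of Tgfb2 differed by 0.29 and 0.15, with adjusted p of 0.466 and 0.721. The probe sets of each gene had the same sign, and they disagreed in size. Some called members did not pass on this scale. Adjusted over all probe sets, the chosen probe sets of Tgfbr2, Bmpr1a, Smad5 and Smurf2 had 0.0655, 0.0597, 0.0585 and 0.0584.

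The BMP ligands were not called either. Bmp2, an activator of the BMP branch, was 8.64, 8.06 and 7.25 on the healthy arrays, 8.57, 9.17 and 9.71 on the metastatic arrays with IgG, and 7.86, 9.54 and 9.27 with DC101. Its arrays scattered over more than 1 log2 unit within each group and the groups overlapped, so that the difference of 1.17 with IgG had an adjusted p of 0.148. Bmp6 and Bmp7 differed by -0.30 each without overlap of the groups, with adjusted p of 0.0784 and 0.122, although both other probe sets of Bmp7 were higher, by 0.50 and 0.56. Bmp4 differed by -0.08. Gdf2, the gene of the liver-derived ligand BMP9, differed by -0.04 with a 95% interval of -0.27 to 0.19.

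The 5 genes for secreted antagonists were not called. Fst encodes follistatin, which binds and neutralizes activins, and its groups did not overlap, with a difference of 0.43 and an adjusted p of 0.0812. Fstl3, a follistatin relative, differed by -0.25, and the BMP antagonist genes Grem1 and Nog by 0.30 and -0.34, with overlapping groups. Bmper encodes an extracellular modulator of BMPs. It was 7.43, 6.81 and 7.52 on the healthy arrays, 7.33, 7.94 and 6.84 on the metastatic arrays with IgG, and 8.20, 8.64 and 7.13 with DC101. These arrays were mixed across the groups, and no comparison of Bmper passed.

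Of the 11 receptor and co-receptor genes, 1 rose and 1 fell. Tgfbr2, the type II receptor for TGF-β, was 12.78, 12.95 and 12.85 on the healthy arrays, 13.24, 13.28 and 13.23 on the metastatic arrays with IgG, and 13.22, 13.23 and 13.15 with DC101. The metastatic arrays lay in a narrow band above the healthy ones, and the change of 0.39 ± 0.09 (SE) had an adjusted p of 0.0441. This call was lost when any array was left out. Of its 2 other probe sets, 1 was also higher, by 0.52, and the dimmest differed by 0.04.

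Bmpr1a encodes the BMP type I receptor ALK3. It was 9.32, 9.24 and 9.10 on the healthy arrays, 8.51, 8.88 and 8.51 on the metastatic arrays with IgG, and 8.89, 8.75 and 7.89 with DC101. All metastatic arrays lay below the healthy ones, and the change of -0.59 ± 0.13 (SE) had an adjusted p of 0.0442. The other 5 probe sets of Bmpr1a ranged from -0.38 to 0.09, and the call was lost in 5 of the 6 fits that left out 1 array, the exception being the fit without metastatic IgG replicate 2. It was also lost in 6 alternatives that kept every array, among them the fit of all 9 arrays and the mean of all probe sets.

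The receptors of the endothelial BMP9 branch were slightly lower, and none was called. Acvrl1, which encodes ALK1, was 14.06, 14.02 and 14.11 on the healthy arrays and 13.77, 13.87 and 13.78 on the metastatic arrays with IgG, a difference of -0.26 with an adjusted p of 0.136. Eng, which encodes endoglin, differed by -0.31 with an adjusted p of 0.0957, and Bmpr2 by -0.20 with an adjusted p of 0.251. Each of these 3 genes had no overlap between the groups, which was also the case for 27.6% of all genes. The activin receptor genes gave small differences, with 0.05 for Acvr1b, -0.08 for Acvr2a, -0.37 for Acvr2b and -0.22 for Acvr1. Acvr1b is on the study's inflammation signature. Tgfbr1, the type I receptor for TGF-β, differed by 0.17 and the co-receptor gene Tgfbr3 by -0.10.

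**Figure D2:**
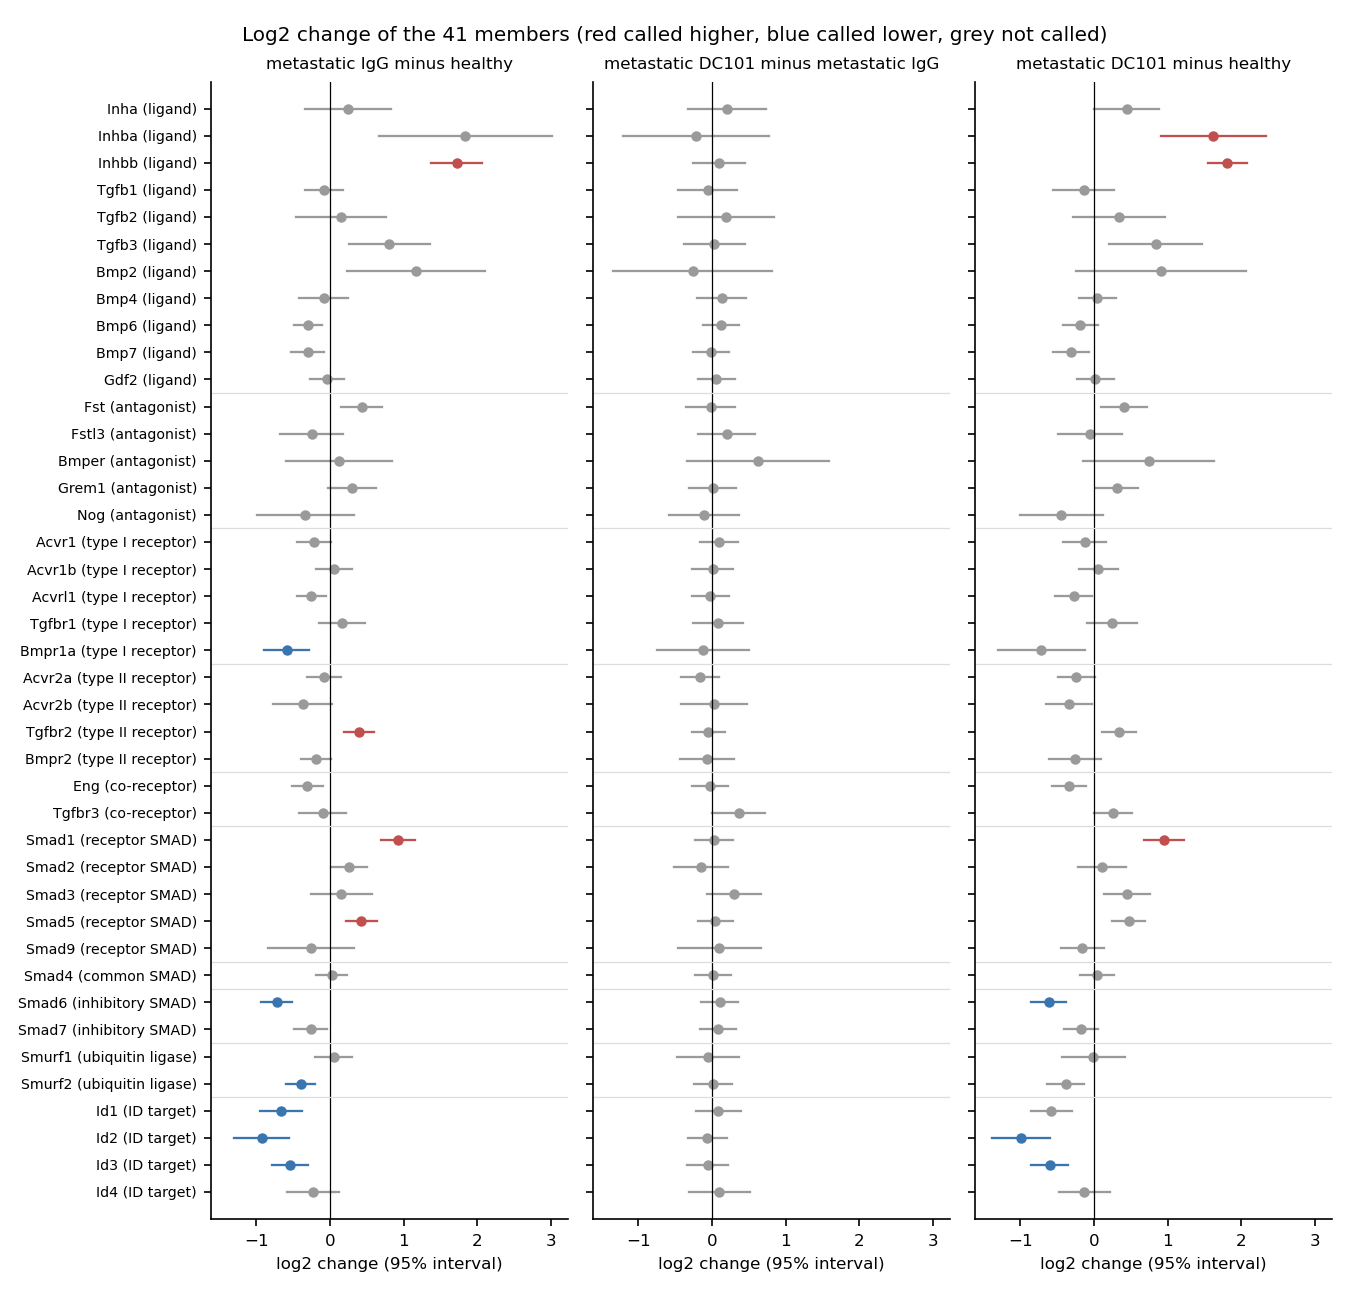
Log2 change of each of the 41 members (horizontal axes), with 95% intervals from limma, for metastatic lungs with IgG minus healthy, metastatic lungs with DC101 minus metastatic lungs with IgG, and metastatic lungs with DC101 minus healthy. Red points were called higher, blue points lower and grey points were not called. The left and right panels share the healthy arrays, and the middle panel has no called member.

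Of the 3 receptor SMADs of the BMP branch, Smad1 and Smad5 rose and Smad9 was not called. Smad1 was 12.38, 12.25 and 12.15 on the healthy arrays, 13.10, 13.21 and 13.24 on the metastatic arrays with IgG, and 13.12, 13.35 and 13.16 with DC101. Every metastatic array was above every healthy one by a wide margin, and the change of 0.93 ± 0.10 (SE), or 1.90-fold, had an adjusted p of 0.00351. All 3 probe sets of Smad1 rose, by 0.93, 0.73 and 0.84.

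Smad5 was 11.96, 12.08 and 12.04 on the healthy arrays, 12.36, 12.46 and 12.54 on the metastatic arrays with IgG, and 12.53, 12.51 and 12.45 with DC101. The groups were again apart, with a change of 0.43 ± 0.09 (SE) and an adjusted p of 0.0396, which rose to between 0.0666 and 0.122 when 1 array was left out. Its other probe sets differed by 0.47 and 0.72. Smad9, the last SMAD of this branch, differed by -0.26 with overlapping groups.

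The SMADs of the activin and TGF-β branch were not called. Smad2 differed by 0.25 with an adjusted p of 0.223. Smad3 was 9.92, 10.30 and 9.94 on the healthy arrays, 9.88, 10.32 and 10.41 on the metastatic arrays with IgG, and 10.42, 10.54 and 10.55 with DC101. The healthy and metastatic arrays with IgG overlapped and differed by 0.15, whereas a dimmer probe set of Smad3 differed by -0.60. Smad4, the partner of all receptor SMADs, differed by 0.02 with a 95% interval of -0.19 to 0.23.

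Among the inhibitors inside the cell, Smad6 showed the largest drop. SMAD6 limits mainly BMP signalling, and SMAD7 limits all branches. Smad6 was 13.38, 13.34 and 13.43 on the healthy arrays, 12.71, 12.56 and 12.71 on the metastatic arrays with IgG, and 12.82, 12.81 and 12.67 with DC101. No metastatic array came near the healthy ones, and the change of -0.72 ± 0.09 (SE) had an adjusted p of 0.00582. Smad6 has 1 probe set, so the alternatives with other probe set rules did not change its values. Smad7 differed by -0.26 without overlap of the groups and with an adjusted p of 0.164.

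Smurf2 encodes a ubiquitin ligase that targets receptors and SMADs for degradation. It was 13.15, 13.18 and 13.19 on the healthy arrays, 12.80, 12.71 and 12.82 on the metastatic arrays with IgG, and 12.90, 12.81 and 12.65 with DC101. The healthy arrays were nearly equal and all metastatic ones were lower, with a change of -0.40 ± 0.08 (SE) and an adjusted p of 0.0381, which was lost when any array was left out. All 3 probe sets were lower, with changes of -0.60 and -0.77 for the other 2. The related ligase gene Smurf1 differed by 0.05 with a 95% interval of -0.20 to 0.30.

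The ID genes encode helix-loop-helix proteins that lack a DNA-binding domain and block other transcription factors of that family. Of the 4 genes, 3 fell and Id4 differed by -0.23 with an adjusted p of 0.445. Id1 was 12.61, 12.39 and 12.41 on the healthy arrays, 11.96, 11.61 and 11.83 on the metastatic arrays with IgG, and 11.95, 11.96 and 11.75 with DC101. Id2 was 10.76, 10.21 and 10.24 on the healthy arrays, 9.51, 9.39 and 9.52 with IgG, and 9.27, 9.55 and 9.41 with DC101. Id3 was 12.99, 12.84 and 12.89 on the healthy arrays, 12.42, 12.20 and 12.47 with IgG, and 12.28, 12.41 and 12.22 with DC101. For these 3 genes the lowest healthy array was above the highest metastatic array. The log2 changes with IgG were -0.66 ± 0.12, -0.93 ± 0.16 and -0.54 ± 0.11 (SE), with adjusted p of 0.024, 0.0187 and 0.0291. Without 1 array the calls were lost in 5 of 6 fits for Id1 (all but that without metastatic IgG replicate 1), in the 3 fits without a metastatic array for Id2, and in all 6 fits for Id3. Id1 and Id3 have 1 probe set each. Id2 has 2 more probe sets, which differed by -0.49 and -0.14.

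**Figure D3:**
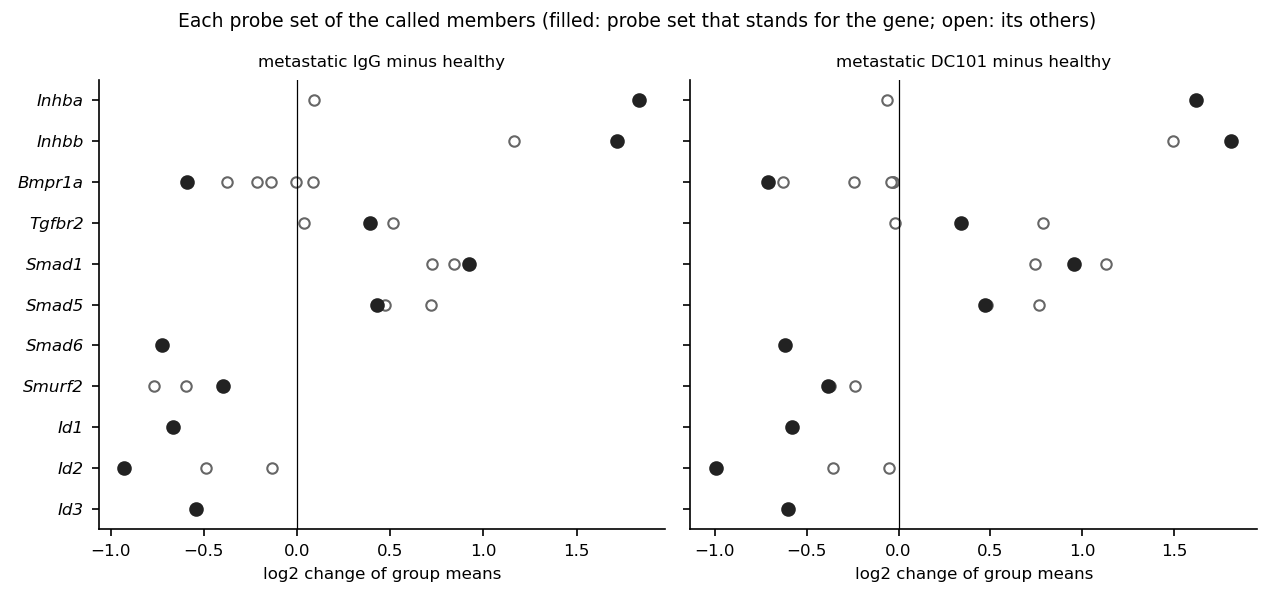
Log2 change of group means (horizontal axes) for every probe set of the 11 members called in at least 1 comparison, with the probe set that stands for the gene filled and its others open. All probe sets of Inhbb, Smad1, Smad5 and Smurf2 lie on 1 side of 0. Those of Id2 do too, but its dimmest lies close to 0 with DC101, at -0.05. Inhba, Bmpr1a and Tgfbr2 each have a probe set close to 0, and 1 open point of Tgfbr2 lies beyond the filled one.

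Id2, Id3 and Smad6 were the 3 members called lower in both metastatic groups against healthy lungs, so their promoters are shown. Each is the 300-base window, from 250 bases before to 50 after the transcription start, of the RefSeq table for the mouse assembly GRCm38.p6, written 5′ to 3′ on the gene's strand. Capitals mark GGCGCC, a motif associated with SMAD1 and SMAD5, and GTCT or its reverse complement AGAC, the short SMAD box. Both motifs were searched on both strands, and they did not overlap each other in these windows. Id2 lies at chr12:25096043-25096342 on the minus strand, Id3 at chr4:136143572-136143871 on the plus strand, and Smad6 at chr9:64022010-64022309 on the minus strand.
Id2: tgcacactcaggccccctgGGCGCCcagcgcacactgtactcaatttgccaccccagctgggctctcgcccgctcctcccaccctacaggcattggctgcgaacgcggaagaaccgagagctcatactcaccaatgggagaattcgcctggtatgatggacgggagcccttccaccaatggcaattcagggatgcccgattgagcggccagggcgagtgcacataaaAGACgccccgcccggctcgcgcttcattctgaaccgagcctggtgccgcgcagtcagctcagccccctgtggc
Id3: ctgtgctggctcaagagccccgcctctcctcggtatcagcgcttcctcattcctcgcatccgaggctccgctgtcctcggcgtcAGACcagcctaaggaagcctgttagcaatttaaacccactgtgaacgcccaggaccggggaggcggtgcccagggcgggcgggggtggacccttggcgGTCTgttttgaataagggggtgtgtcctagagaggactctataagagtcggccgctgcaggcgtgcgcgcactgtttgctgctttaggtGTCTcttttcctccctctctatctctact
Smad6: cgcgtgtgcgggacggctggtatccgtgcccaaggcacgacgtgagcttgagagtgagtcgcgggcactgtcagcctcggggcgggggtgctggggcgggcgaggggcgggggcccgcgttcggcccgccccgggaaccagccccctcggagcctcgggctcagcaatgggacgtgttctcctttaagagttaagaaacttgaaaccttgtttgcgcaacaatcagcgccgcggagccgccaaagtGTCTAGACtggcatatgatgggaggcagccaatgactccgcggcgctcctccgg
The Id2 window held 1 GGCGCC and 1 GTCT or AGAC, and the Id3 window held 3 of the short box. In the Smad6 window the 2 short boxes abut and form the palindrome GTCTAGAC. Of all 32851 windows in the table, 11.9% held GGCGCC, 88% held GTCT or AGAC and 0.213% held GTCTAGAC. Of the 33 windows of member genes, 33.3% held GGCGCC, 87.9% held GTCT or AGAC and 3.03% held GTCTAGAC. This last share is 1 window, the Smad6 window shown here, so it says nothing about the other members. The short box is therefore present in most promoters. These matches describe the letters of the windows only, and windows were matched for 30 of 41 members.

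To determine whether blocking VEGFR2 altered these genes, metastatic lungs with DC101 were compared with metastatic lungs with IgG. For this experiment the study had picked mice with a similar lung metastatic load by bioluminescence. No member was called, and neither was any other gene (0% of 18193). At an unadjusted p under 0.05 there was 1 member, against 6.65% of all genes. This was Tgfbr3, the co-receptor betaglycan, which presents TGF-β2 and inhibin to the receptors. Its level was 11.89, 11.98 and 11.88 on the healthy arrays, 11.62, 11.72 and 12.10 on the metastatic arrays with IgG, and 12.27, 12.02 and 12.25 with DC101. The arrays with DC101 overlapped those with IgG, and the difference of 0.36 had an adjusted p of 0.741.

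The arrays of these groups stood apart for 2 members (4.88%), Bmp6 and Smad3, against 12.4% of all genes. Smad3 was higher with DC101 by 0.30 with an adjusted p of 0.762, and Bmp6 by 0.12 with an adjusted p of 0.844. For 40 of 41 members the difference was within 0.5 in either direction, the exception being Bmper at 0.62 with a 95% interval of -0.35 to 1.58. The intervals were narrower for most members called with IgG against healthy lungs. They ran from -0.26 to 0.44 for Inhbb, from -0.23 to 0.29 for Smad1 and from -0.14 to 0.36 for Smad6. For the ID genes they ran from -0.22 to 0.39 for Id1, from -0.33 to 0.20 for Id2 and from -0.34 to 0.22 for Id3. Differences larger than these bounds are outside the 95% intervals, whereas smaller ones could not be resolved with 3 arrays per group. For Inhba and Bmp2, whose arrays scattered widely, the intervals were -1.21 to 0.78 and -1.34 to 0.82. The count of called members was 0 in every alternative fit, including those that left out 1 array. Some probe sets other than the chosen ones differed by more than 0.5. They gave -0.67 and -0.56 for Bmp7, 0.68 for Smad3 and 0.52 for Tgfbr3, with limma adjusted p over all probe sets from 0.801 to 0.85.

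Metastatic lungs with DC101 were also compared with healthy lungs. Since this comparison shares its healthy arrays with the first, the values are given beside each other and not as a second line of evidence. Inhbb, Inhba and Smad1 were higher and Smad6, Id2 and Id3 were lower. These were 6 of 41 members (14.6%), against 2.42% of all genes, with 3 higher (1.58% of all genes) and 3 lower (0.835%). With each array set relative to its mean pan-endothelial level, 3 members were higher and 1 was lower, as Smad6 and Id3 lost their calls, and over all genes the split moved from 288 higher and 152 lower to 303 and 92. The arrays did not overlap for 24 of 41 members (58.5%), against 23.1% of all genes. With 1 array left out, 2 or 3 members were called.

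Inhbb was higher by 1.81 ± 0.11 (SE), or 3.51-fold, with an adjusted p of 0.000931, beside 1.72 with IgG. Smad1 was higher by 0.95 ± 0.12 with an adjusted p of 0.0104, beside 0.93 with IgG. Inhbb was called in every alternative fit, and Smad1 in all but the fit without moderation of the variance, where its adjusted p was 0.0928. Inhba was higher by 1.62 ± 0.30 with an adjusted p of 0.0431. It lost its call in all fits without 1 array other than that without healthy replicate 3. The call was also lost in 5 alternatives that kept every array, among them the fit of all 9 arrays, which called Inhba with IgG. Adjusted over all probe sets, its chosen probe set had 0.0672. Its second probe set differed by -0.06.

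On the lower side, Smad6 differed by -0.62 ± 0.10 with an adjusted p of 0.0281, Id2 by -0.99 ± 0.17 with 0.0324 and Id3 by -0.60 ± 0.11 with 0.035. Other probe sets of Id2 differed by -0.36 and -0.05, and its call was lost with the mean of all probe sets. Smad6, Id2 and Id3 all lost their call when any 1 array was left out. Adjusted over all probe sets instead of genes, their chosen probe sets had 0.0502, 0.0528 and 0.0607. Of the members called with IgG, 5 were called here too and the other 5 kept the direction without passing the test. Smad5 differed by 0.47 with an adjusted p of 0.06 and Id1 by -0.58 with 0.0567, both near the threshold. Tgfbr2 differed by 0.34 with an adjusted p of 0.146, Smurf2 by -0.39 with 0.127 and Bmpr1a by -0.71 with 0.216, the latter with 1 DC101 array far below the other 2.

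The neighbouring genes of the pathway were taken from lists of other ligands, receptors, antagonists and latency proteins, intracellular regulators, and known target genes. Of 100 measured genes, 23 were called in metastatic lungs with IgG against healthy lungs, 13 higher and 10 lower, beside the 6.53% of all genes. The target genes contributed 6 higher and 3 lower of 26, and the antagonists and latency proteins 3 higher and 5 lower of 24. Of 17 other ligands 1 was higher and 1 lower, of 12 other receptors 1 was higher and 1 lower, and of 21 intracellular regulators 2 were higher. With DC101 against healthy lungs 10 of 100 were called, 6 higher and 4 lower, beside 2.42% of all genes. With DC101 against IgG none was called, and 9 of 100 had an unadjusted p under 0.05, beside 6.65% of all genes.

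The genes with the largest changes were matrix genes. Tgfbi, named for its induction by TGF-β and encoding a secreted matrix protein, was 8.95, 9.38 and 9.28 on the healthy arrays, 11.45, 11.20 and 10.88 on the metastatic arrays with IgG, and 11.56, 11.34 and 11.04 with DC101. Metastatic arrays of both kinds lay far above the healthy ones, with changes of 1.98 and 2.11 and adjusted p of 0.00174 and 0.00222. Fn1, which encodes fibronectin, rose by 1.69 with IgG and 1.85 with DC101. Col1a1, a collagen I chain, rose by 1.85 and 2.03. Itgb3, the integrin β3 subunit, and Cd109, a TGF-β co-receptor, rose by 1.07 and 0.78 with IgG. Tgfbi and Cd109 are on the study's secreted-protein list, so their direction is not independent evidence.

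Against healthy lungs with DC101, the matrix signalling gene Ccn2 and the latent TGF-β binding protein gene Ltbp2 were higher by 0.85 and 0.84. Lower genes with IgG included Dcn at -1.05, which encodes the TGF-β-binding proteoglycan decorin, the chemokine gene Cx3cl1 at -0.94 and the BMP family ligand gene Gdf10 at -0.91. The cyclin-dependent kinase inhibitor gene Cdkn2b, a classical TGF-β target, differed by -0.80 and the microtubule regulator gene Stmn2 by -0.79. With DC101, the lower genes were Cx3cl1 at -0.86, the NODAL antagonist gene Lefty1 at -0.84, the latency protein gene Ltbp4 at -0.67 and Dand5, another antagonist, at -0.58. The target gene list thus moved in both directions, with a median change of -0.01 with IgG.

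**Figure D4:**
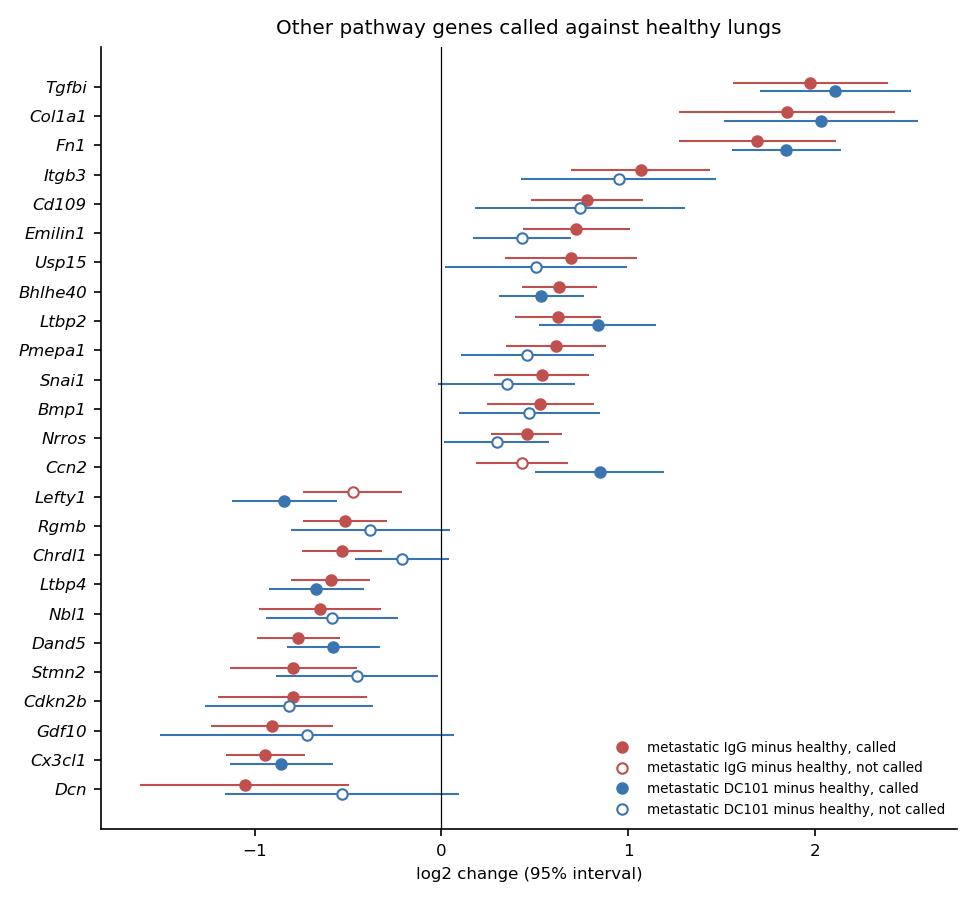
Log2 change against healthy lungs (horizontal axis) with 95% intervals for the pathway genes outside the 41 members that were called in at least 1 of the 2 comparisons with healthy lungs, with IgG (red) and DC101 (blue), filled where called and open where not. Tgfbi, Col1a1 and Fn1 have the largest increases, from 1.69 to 2.11, and Dcn has the largest decrease, -1.05.

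Markers of other cells and states moved between the same groups, and their part in these differences was not tested. All 11 measured cell cycle genes were higher in metastatic lungs with IgG, and their mean level rose from 7.63 to 7.97 on healthy arrays to 10.4 to 11.4 with IgG and 9.77 to 10.8 with DC101. Lymphatic endothelial markers were higher for 6 of 11 genes, venous markers higher for 4 and lower for 2 of 11, arterial markers higher for 1 and lower for 3 of 12, aerocyte markers higher for 1 and lower for 3 of 11, and general capillary markers lower for 2 of 10. Of markers of other cell types, 6 of 12 lung epithelial and 4 of 10 platelet and erythrocyte genes were lower, 3 of 15 fibroblast and mural genes were higher and 4 lower, and 3 of 12 macrophage and monocyte genes were higher and 1 lower. Neutrophil, lymphocyte and mesothelial markers had no called gene with IgG. With DC101 against healthy lungs, 10 of 11 cell cycle genes, 1 of 11 lymphatic, 2 of 11 venous and 1 of 8 mesothelial genes were higher. Arterial markers were then higher for 2 and lower for 2 of 12, fibroblast and mural markers higher for 3 and lower for 1 of 15, and 2 of 11 aerocyte, 2 of 10 general capillary and 3 of 10 platelet and erythrocyte genes were lower. The lung epithelial, macrophage and monocyte, neutrophil, lymphocyte and pan-endothelial lists had no called gene in that comparison. Col1a1 and Dcn, named above, are on the fibroblast list as well, and Stmn2 is on the arterial list. The pan-endothelial list had 1 of 15 genes called with IgG, and its mean level differed little, with 13.54 to 13.55 on healthy arrays, 13.50 to 13.52 with IgG and 13.46 to 13.56 with DC101. The 3′ minus 5′ signal of Gapdh, a measure of RNA integrity, was 0.69 to 0.77 on healthy arrays, 0.47 to 0.57 with IgG and 0.35 to 0.60 with DC101. The same measure for Actb overlapped between the groups, with -0.11 to 0.09 on healthy arrays, 0.01 to 0.09 with IgG and 0.004 to 0.14 with DC101.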

How the data were processed

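RNA of sorted lung ECs was hybridised to Affymetrix mouse genome arrays after labelling with a 3′ in vitro transcription kit. The authors normalized the arrays by robust multiarray averaging in the program Chipster and deposited log2 values with 1 column per array. Robust multiarray averaging (RMA) gives all arrays the same distribution, which hides any change in a cell's total RNA. Probe sets of 1 gene symbol (34945 of 45101) were named through the platform's probe-to-gene table, and a gene was represented by its brightest probe set on average across the 9 arrays. Dim genes were kept, and 28 of the 41 members were above the median gene (9.03). Arrays were grouped by their labels. Each comparison used its own 6 arrays in a linear model per gene (limma 3.58.1, functions lmFit and eBayes, run in R 4.3.3), which was tested on simulated data, with Benjamini-Hochberg adjustment over 18193 genes, with 2-sided p-values. The alternatives were 1 fit over all arrays, a replicate block, other probe set rules, bright genes only, other variance models, array weights, scaling to pan-endothelial markers (added after seeing the data) and leaving out each array. Values of all arrays are given for the members called in at least 1 comparison and the 5 with the largest change in each comparison, and at most 5 other pathway genes per comparison and direction are named. The members, the gene lists and this rule were chosen with earlier results of these data known.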

Additional observations from a re-analysis of the deposited data

How the results depend on the processing

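No change of a named member that was called reversed under any alternative, but the number of calls depended on the fit. For metastatic lungs with IgG minus healthy lungs, where 10 members and 1188 genes were called, the fits without 1 array called 3 to 5 members and 556 to 759 genes, and the fit without variance moderation 5 members and 376 genes. For metastatic lungs with DC101 minus healthy lungs, where 6 members and 440 genes were called, the fits without 1 array called 2 to 3 members and 110 to 361 genes, the fit without moderation 1 member and 14 genes, the fit with an intensity trend 12 members, and the fit of all 9 arrays 662 genes. Fits without an array have fewer samples, and the cause of the other shifts was not tested. Replicate numbers did not pair the arrays: same-numbered arrays correlated with r of -0.05 to 0.08 after removal of group means, and 2 of 6 arrays in each comparison correlated best with their own number. With the replicate block, 5 members and 689 genes were called with IgG and 2 members and 247 genes with DC101 against healthy lungs. DC101 against IgG gave 0 calls in all alternatives. Signals on 13 members below the median gene can understate changes.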
